A study of Mus musculus with 18 samples.

Results

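Gene expression in hindlimb tissue of mouse embryos that carry a knockout (KO) of Pitx1 was compared between the embryonic stages E11.5 and E9.5, numbered in days of gestation. The comparison uses 6 of the 18 RNA sequencing libraries of the study, chosen by the genotype and stage in their labels: 3 of the KO hindlimb at E11.5 and 3 of the KO hindlimb field at E9.5. All are of strain C57BL/6, labelled Pitx1 KO and described as Pitx1-/- in the study's design. The E9.5 tissue was the prospective hindlimb together with the adjoining trunk, whereas at E11.5 it was the limb alone. Stage, tissue and deposited table (each stage was processed in a table of its own) therefore change together and cannot be told apart. The wild-type (WT) libraries of the same stages, 3 at E11.5 and 3 at E9.5 from the same tissues, serve as the reference for the KO. Neither the deleted stretch of the KO allele nor the origin of the replicates (separate embryos or pools) is given by the labels. All p-values thus refer to the spread among libraries, a spread that may be technical.

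PITX1 is a homeodomain transcription factor made in the hindlimb and not in the forelimb, and Tbx4, a T-box gene needed for hindlimb outgrowth, is among its known targets. The hindlimb arises from lateral plate mesoderm beside the trunk. Signals such as Fgf10 start its outgrowth, a ridge of ectoderm at the tip keeps it going, and Shh from the posterior edge and the 5′ Hox genes lay out its axes. Cartilage condenses from the limb mesenchyme, and the muscle precursors enter the bud from the somites, the segmented blocks of mesoderm beside the neural tube.

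Values below are CPM, the deposited fragment counts scaled to a common library size with 1 scaling over the 12 KO and WT libraries, and log2 changes are E11.5 over E9.5. Each log2 change from edgeR is given with its standard error (SE) after the ± sign, followed by its p-value adjusted over all tested genes. The KO libraries held 44986882 to 60672151 fragments at E11.5 and 14361921 to 18553033 at E9.5, so depth differed by stage too, and the intervals given for small counts cover counting error only. Correlations of log2 CPM across genes ran from 0.977 to 0.9889 within a stage and from 0.8916 to 0.917 between stages. KO replicate 2 of E9.5 stood apart from the other libraries of its group: its summed level of 18 tail bud genes was 597 CPM against 286 and 240, its summed level of 25 gut genes 804 against 483 and 399, and its summed level of 36 neural tube genes 536 against 868 and 910. WT replicate 3 of E9.5 showed the same pattern, with 781, 805 and 526 CPM for these lists. KO replicate 2 of E11.5 held 9807 CPM of red blood cell genes against 5056 and 5505.

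Pitx1 itself measured 54.8, 40.8 and 47.1 CPM at E11.5, against 60, 62.1 and 45.3 CPM at E9.5, which overlap (log2 change -0.24 ± 0.14, adjusted p = 0.186). Without KO replicate 3 of E9.5 the log2 change was -0.36 and passed (adjusted p = 0.0392, edgeR). Pitx1 averaged 282 ± 38.4 CPM at E11.5 and 136 ± 13.7 CPM at E9.5 in the WT (SD, n = 3 each), so that every KO library lay below every WT library of its stage. Tbx4 showed the same: 61.2, 64.8 and 68.2 CPM at E11.5, against 50.2, 61.3 and 59.6 CPM at E9.5 in the KO (log2 change 0.18 ± 0.09, adjusted p = 0.132), against averages of 187 ± 16.3 CPM at E11.5 and 75.7 ± 18.3 CPM at E9.5 in the WT (SD, n = 3 each). In the WT both genes rose, by 1.05 ± 0.12 in log2 (SE) for Pitx1 and 1.30 ± 0.16 in log2 (SE) for Tbx4. The difference of the KO change from the WT change was -1.29 for Pitx1 (adjusted p = 0.0558, edgeR) and -1.12 for Tbx4 (adjusted p = 0.102, edgeR) and did not pass in either case. Pitx1 passed with no filter on low counts, without KO replicate 3 of E9.5 or without KO replicate 1 of E11.5, and Tbx4 without WT replicate 2 of E9.5.

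Of 14463 genes tested in the KO, 8040 (55.6%) passed an adjusted p of 0.05. Of all tested genes 27.8% were higher at E11.5 (4016) and 27.8% were lower (4024). Of these, 1273 rose at least 2-fold (8.8% of tested) and 1414 fell at least 2-fold (9.78%). The 2 stages did not overlap for 9294 genes (64.3%). The counts for gene lists below are to be read against this 27.8% in each direction. The lists were described by counts and medians and were not tested as sets. The median log2 change over all tested genes was 0.008.

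**Figure D1:**
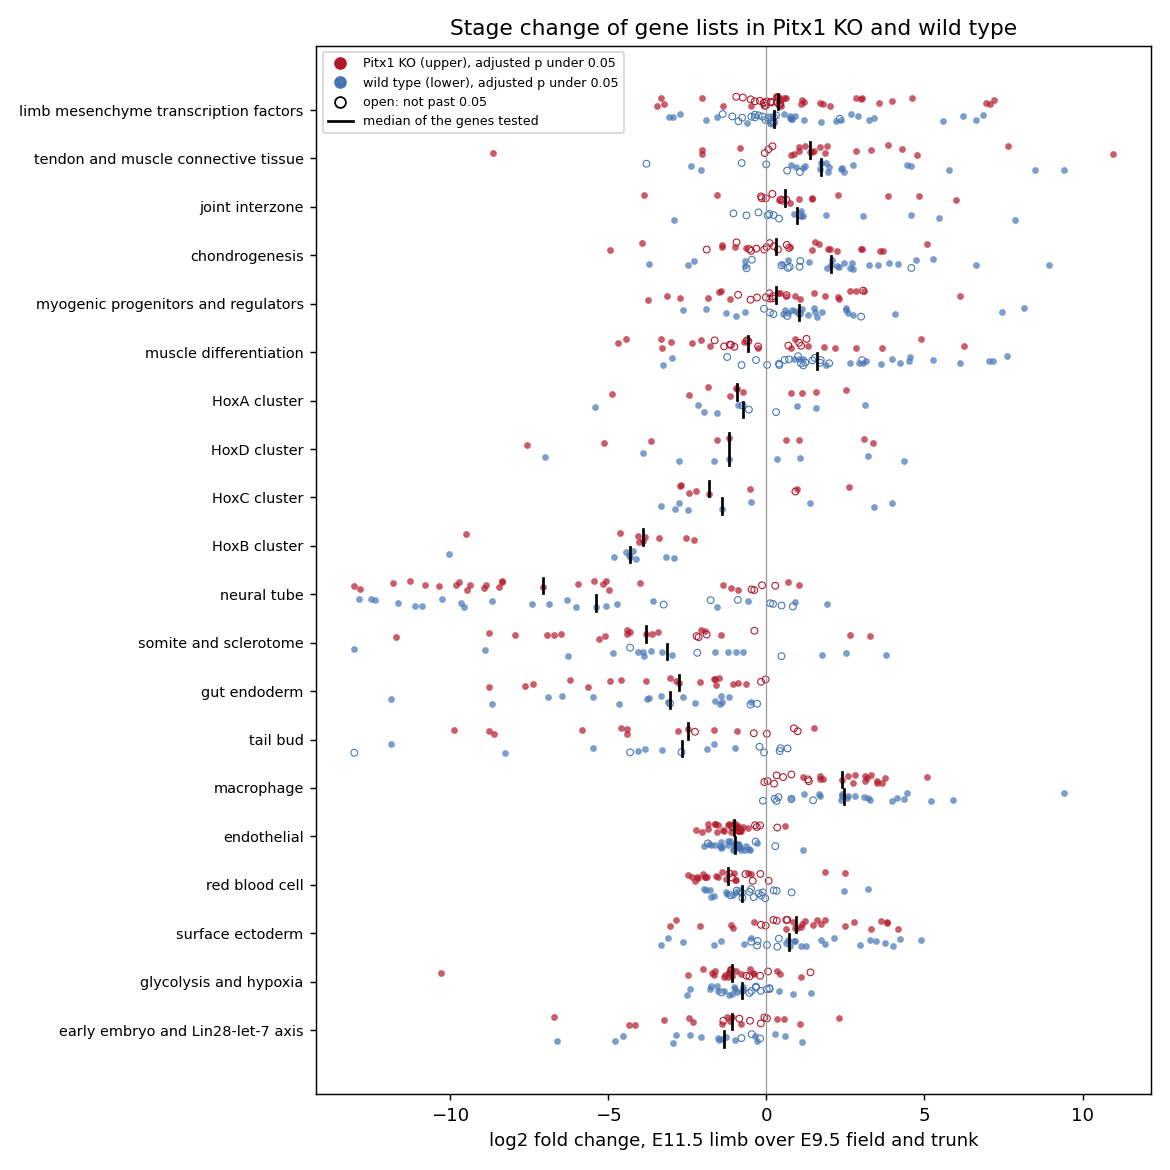
Log2 fold change, E11.5 over E9.5, of the genes of 20 lists. For each list the KO is the upper strip and the WT the lower, each point is a gene, filled where its adjusted p is under 0.05, and the black line is the median. Neural tube, HoxB and somite genes lie far to the left in both genotypes, macrophage and connective tissue genes to the right, and muscle differentiation genes are split in the KO with a median of -0.56.

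Many transcription factors of limb mesenchyme were higher in the E11.5 limb than in the E9.5 field. Of 44 such genes, all tested, 20 rose and 6 fell, with a median log2 change of 0.37. Without KO replicate 2 of E9.5, 19 rose and 7 fell, with a median of 0.29. Prrx1, a homeobox gene that marks limb mesenchyme, measured 1199.2, 862 and 1099.5 CPM at E11.5, against 117, 131 and 140 CPM at E9.5 (log2 change 3.02 ± 0.13, adjusted p = 6.67e-07). Tbx15, a T-box gene needed for skeletal and muscle development, measured 282, 230 and 277 CPM at E11.5, against 1.2, 0 and 4.43 CPM at E9.5 (log2 change 7.21 ± 0.71, adjusted p = 0.000707). Shox2, which patterns the upper limb segment, measured 124, 98.7 and 124 CPM at E11.5, against 0.708, 0.3 and 1.66 CPM at E9.5 (log2 change 7.07 ± 0.33, adjusted p = 6.95e-06). For these genes every E11.5 library lay above every E9.5 library, and Tbx15 and Shox2 were under 5 CPM in every library of the field. In bulk tissue a larger share of cells of a type and more RNA per cell cannot be told apart, here and in all results that follow.

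The LIM homeobox genes Lhx9 and Lhx2, which relay the ridge signal to the mesenchyme, rose as well. Lhx9 measured 253, 156 and 207 CPM at E11.5, against 1.03, 0.6 and 3.6 CPM at E9.5 (log2 change 6.94 ± 0.53, adjusted p = 0.000273) and Lhx2 99.6, 89.8 and 110 CPM at E11.5, against 5.39, 1.02 and 13.1 CPM at E9.5 (log2 change 3.97 ± 0.69, adjusted p = 0.00576). The E9.5 libraries differed among themselves here: replicate 2, the library with more tail bud RNA, held the least of both genes and replicate 3 the most. Hic1, a repressor found in connective tissue precursors, measured 30.9, 22.5 and 18.4 CPM at E11.5, against 0.98, 0.54 and 1.45 CPM at E9.5 (log2 change 4.61 ± 0.32, adjusted p = 9.37e-06). Sall4, an early zinc finger gene of limb and stem cells, went the other way, with 13.2, 19.5 and 15.6 CPM at E11.5, against 130, 211 and 111 CPM at E9.5 (log2 change -3.23 ± 0.30, adjusted p = 0.000387), and so did Alx1 (log2 change -3.44 ± 0.25, adjusted p = 5.4e-06) and Meis3 (log2 change -3.31 ± 0.47, adjusted p = 0.00208). Meis2, a marker of the proximal limb and trunk mesoderm, overlapped between the stages with 77.7, 187 and 149 CPM at E11.5, against 239, 187 and 263 CPM at E9.5 (log2 change -0.74 ± 0.35, adjusted p = 0.134); KO replicate 1 of E11.5 was low for it.

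**Figure D2:**
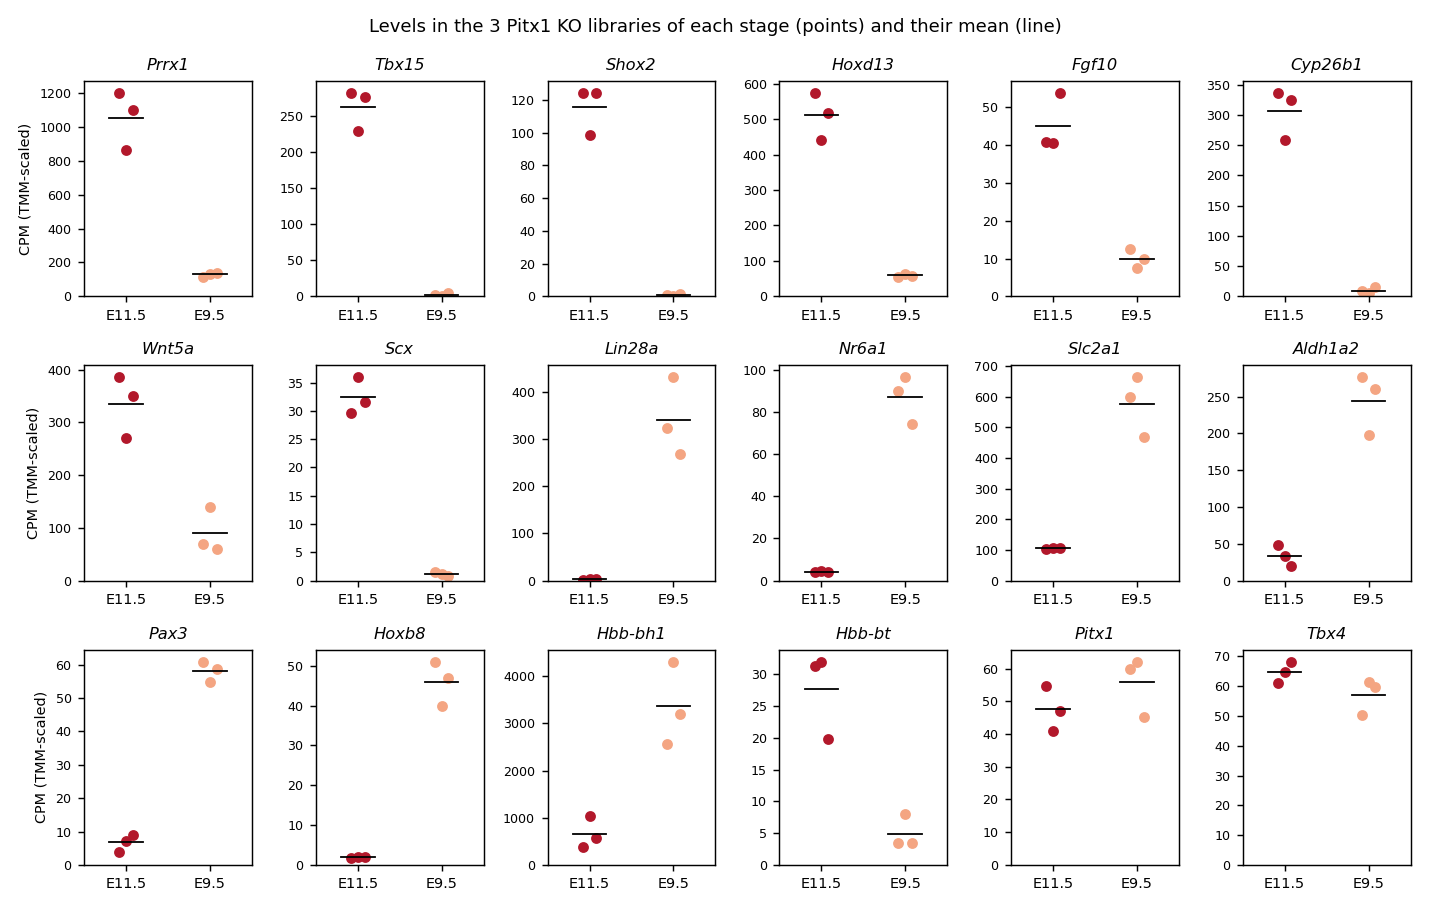
CPM of 18 genes in each KO library, E11.5 left and E9.5 right, each panel on a linear axis from 0. Limb genes such as Prrx1, Hoxd13 and Cyp26b1 are high in all 3 E11.5 libraries, Lin28a, Nr6a1, Slc2a1, Pax3 and Hoxb8 in all 3 E9.5 libraries, while Pitx1 and Tbx4 overlap or nearly overlap.

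Genes that start the hindlimb went in both directions. Of 18 listed, all tested, 5 rose and 7 fell, so that 66.7% were called, against 55.6% of all tested genes. Fgf10, the mesenchymal signal of outgrowth, measured 40.8, 40.6 and 53.7 CPM at E11.5, against 12.4, 7.37 and 9.77 CPM at E9.5 (log2 change 2.18 ± 0.19, adjusted p = 3.07e-05). Hand2, a posterior mesenchyme factor upstream of Shh, measured 202, 165 and 207 CPM at E11.5, against 53, 85.1 and 50.9 CPM at E9.5 (log2 change 1.60 ± 0.21, adjusted p = 0.000956). Both were higher in all 3 E11.5 libraries. Isl1, a LIM homeobox gene that acts before outgrowth in the hindlimb field, measured 7.81, 30.7 and 15.5 CPM at E11.5, against 61.4, 54.9 and 57.8 CPM at E9.5 (log2 change -1.69 ± 0.51, adjusted p = 0.0378). Its call was lost without any of 4 of the 6 libraries (adjusted p from 0.0663 to 0.112, edgeR), although the stages did not overlap. Tbx5, the forelimb T-box gene, was low at both stages, with 1.14, 1.69 and 0.446 CPM at E11.5, against 0.762, 2.4 and 1.25 CPM at E9.5 and no call (log2 change -0.42 ± 0.56, adjusted p = 0.546). Islr, a secreted leucine-rich protein gene, rose (log2 change 1.84 ± 0.29, adjusted p = 0.0021), and Tcf7, a Wnt effector, fell (log2 change -0.86 ± 0.09, adjusted p = 3.07e-05).

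The Hox genes, which assign position along the trunk and along the limb, split by paralogue group. All 9 tested HoxB genes fell, with a median log2 change of -3.90, while Hoxb13 was at or near 0 in all 6 libraries. All 9 also fell under every alternative, except the test against a 1.5-fold change, for which the lists were not counted. In HoxA 4 of 11 rose and 7 fell, in HoxC 2 of 9 rose and 6 fell, and in HoxD 4 of 9 rose and 5 fell. Hoxd13, the last gene of its cluster and a gene of the digit region, measured 573, 440 and 518 CPM at E11.5, against 54.4, 64 and 58.7 CPM at E9.5 (log2 change 3.11 ± 0.11, adjusted p = 1.06e-07). Hoxd12 measured 206, 179 and 220 CPM at E11.5, against 20.3, 14.2 and 23.7 CPM at E9.5 (log2 change 3.38 ± 0.18, adjusted p = 6.62e-06), and Hoxa13 49.6, 36.1 and 42.5 CPM at E11.5, against 5.94, 8.15 and 8.17 CPM at E9.5 (log2 change 2.53 ± 0.17, adjusted p = 2.8e-06). All 3 were higher in every E11.5 library. At the other end, Hoxd1 measured 0.0488, 0.168 and 0.156 CPM at E11.5, against 23.5, 33.4 and 13.7 CPM at E9.5 (log2 change -7.57 ± 0.49, adjusted p = 1.47e-05) and Hoxb1 0.0977, 0.0671 and 0 CPM at E11.5, against 42.1, 61 and 32.2 CPM at E9.5 (log2 change -9.48 ± 0.47, adjusted p = 6.57e-06). These were nearly gone at E11.5.

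Within HoxA the change turned with position: Hoxa2 to Hoxa7 fell, with log2 changes from -2.45 for Hoxa2 to -0.74 for Hoxa6, and Hoxa9 to Hoxa13 rose, with values from 0.77 for Hoxa9 to 2.53 for Hoxa13. The Hoxa6 call was lost without replicate 1 or 3 of E9.5 or replicate 2 of E11.5 (adjusted p from 0.0676 to 0.0996, edgeR). In HoxD the turn lay between Hoxd9, with 26.7, 19.7 and 26.5 CPM at E11.5, against 59.7, 53.1 and 51.5 CPM at E9.5 (log2 change -1.18 ± 0.13, adjusted p = 5.15e-05), and Hoxd10, with 84.6, 62.6 and 88.9 CPM at E11.5, against 47.6, 60.5 and 43.7 CPM at E9.5 (log2 change 0.63 ± 0.16, adjusted p = 0.0109). The Hoxd10 call was lost without replicate 1 of E9.5 (adjusted p = 0.0505, edgeR). In HoxC it lay between Hoxc10, with 98.8, 105 and 109 CPM at E11.5, against 136, 170 and 135 CPM at E9.5 (log2 change -0.50 ± 0.10, adjusted p = 0.00153), and Hoxc11, with 8.61, 15.6 and 14.1 CPM at E11.5, against 5.28, 8.09 and 5.96 CPM at E9.5 (log2 change 0.98 ± 0.25, adjusted p = 0.00857). Hoxc10 and Hoxc11 are the hindlimb-level genes of that cluster. Hoxc12 was not called (log2 change 0.92 ± 0.65, adjusted p = 0.254) but passed without replicate 3 of E9.5 (log2 change 2.12, adjusted p = 0.0273, edgeR), and Hoxc13 rose (log2 change 2.63 ± 0.31, adjusted p = 8.14e-05). Hottip, a noncoding RNA at the Hoxa13 end of HoxA, was among the largest rises of all genes, with 30.1, 20.7 and 32 CPM at E11.5, against 0.272, 0.18 and 0.485 CPM at E9.5 (log2 change 6.48 ± 0.31, adjusted p = 4.35e-07). Its reads and those of genes on the other strand could not be told apart, since the strand setting of the counting is unknown.

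**Figure D3:**
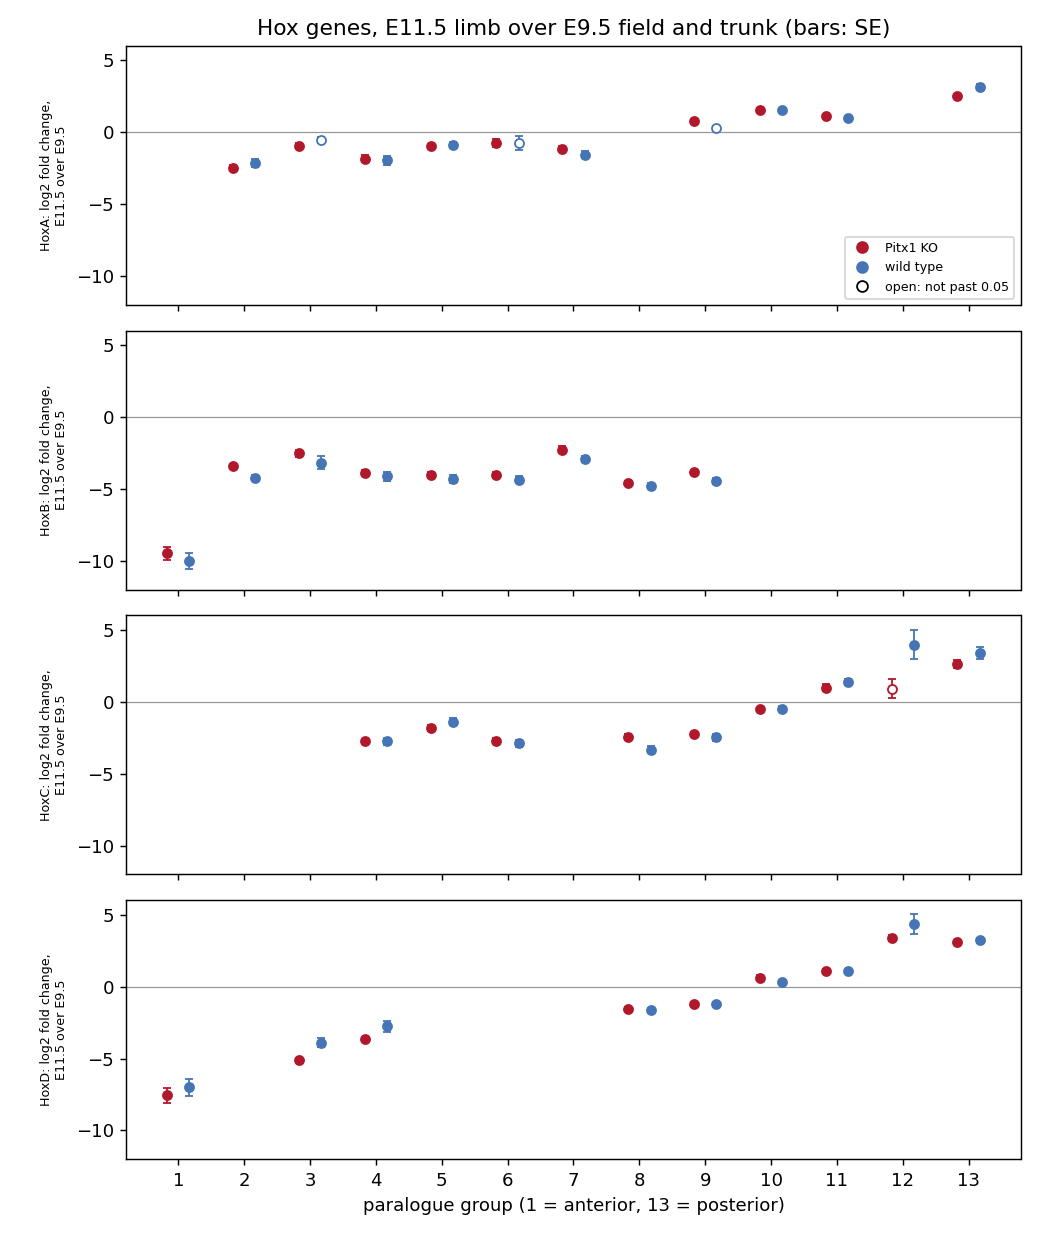
Log2 fold change, E11.5 over E9.5, of Hox genes by cluster and paralogue group, KO left and WT right of each position, with SE bars and open symbols where the adjusted p is not under 0.05. The KO values turn from falls to rises between groups 7 and 9 in HoxA, 9 and 10 in HoxD and 10 and 11 in HoxC, and stay below 0 for the 9 tested HoxB genes.

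Hoxb8 is the textbook target of miR-196, a microRNA made from within the Hox clusters that cleaves the Hoxb8 transcript in mouse embryos. It measured 1.77, 1.94 and 1.92 CPM at E11.5, against 51, 40 and 46.9 CPM at E9.5 (log2 change -4.62 ± 0.14, adjusted p = 2.83e-08), a separation of the stages in every library. The mature microRNA and its site are shown because the pairing is nearly complete. The microRNA sequences are from RefSeq on GRCm38.p6, chr11:96265187-96265208 (+) for miR-196a and chr6:52230129-52230150 (-) for miR-196b, with the seed (bases 2 to 8) in capitals, and the site is positions 418 to 439 of the 845-base Hoxb8 3′ UTR on chromosome 11, with the 21 of 22 bases complementary to miR-196a in capitals.
miR-196a: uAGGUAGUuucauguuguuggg
miR-196b: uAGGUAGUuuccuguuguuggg
Hoxb8 site: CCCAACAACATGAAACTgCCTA
The 7 bases ACTACCT, which pair with the seed, stand in 6.08% of 20964 mouse 3′ UTRs (1274). The Hoxb8 3′ UTR does not hold them, since the base in lower case in its site lies opposite the seed. Among the Hox genes with such a match, Hoxb1, Hoxb6, Hoxb7, Hoxc8, Hoxa4, Hoxa5 and Hoxa7 fell and Hoxa9 rose. Hox genes without a match fell as well. All 9 tested HoxB genes fell, among them Hoxb4, Hoxb5 and Hoxb9, which have no match, by 3.90, 4.03 and 3.84 in log2. No HoxD gene has a match, and of these 5 fell and 4 rose. MicroRNAs were not measured in these libraries, and a match is a description of the sequence only.

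Signalling genes were called in both directions, as were 55.6% of all tested genes. The called share was 61.9% for hedgehog, 52.6% for ridge, 72% for FGF and 68.8% for retinoic acid genes. It was 59.6% for Wnt, 64.5% for BMP and 78.9% for Notch genes. Shh, the posterior signal, which is also made by notochord, floor plate and gut, measured 2.08, 10.3 and 9.55 CPM at E11.5, against 32, 24.1 and 25.5 CPM at E9.5 (log2 change -1.91 ± 0.61, adjusted p = 0.0451). The summed gut level moved with it, at 186, 208 and 183 CPM at E11.5, against 483, 804 and 399 CPM at E9.5, and its part in the result was not tested. Replicate 1 of E11.5 held the least Shh, and the call was lost without any of 5 of the 6 libraries (adjusted p from 0.0618 to 0.114, edgeR). Of 21 hedgehog genes 5 rose and 8 fell, or 5 without any of 4 of the libraries (replicates 1 and 3 of E9.5, 2 and 3 of E11.5). The receptors' helpers Boc (log2 change 0.88 ± 0.15, adjusted p = 0.00154) and Cdon (log2 change 0.85 ± 0.09, adjusted p = 4.39e-05) rose, and Scube2, which releases the ligand from cells, fell, with 0.244, 0.168 and 0.0669 CPM at E11.5, against 28.4, 13.4 and 31.2 CPM at E9.5 (log2 change -7.16 ± 0.49, adjusted p = 2.09e-05). Grem1, the BMP antagonist that links Shh to the ridge, measured 30, 41.2 and 45.6 CPM at E11.5, against 11.7, 12.9 and 11.9 CPM at E9.5 (log2 change 1.67 ± 0.16, adjusted p = 2.31e-05), with no overlap.

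Fgf8, the ridge signal, measured 11.1, 13.3 and 14.6 CPM at E11.5, against 3.81, 5.46 and 4.29 CPM at E9.5 (log2 change 1.52 ± 0.19, adjusted p = 0.000139). Of 19 tested ridge genes 7 rose and 3 fell, among the rises Dlx1 (log2 change 3.29 ± 0.32, adjusted p = 2.6e-05), Dlx5 (log2 change 1.39 ± 0.40, adjusted p = 0.0167) and En1 (log2 change 1.79 ± 0.33, adjusted p = 0.00115), homeobox genes of ridge and ventral ectoderm. The Dlx5 call was lost without any of the 3 E9.5 libraries (adjusted p from 0.0576 to 0.0592, edgeR). The Fgf feedback genes Spry2 and Spry4 also rose, by 1.31 and 1.33 in log2. Fgf15, a signal of neural tissue at this age, was nearly lost, with 0.163, 0.134 and 0 CPM at E11.5, against 20.6, 15.7 and 17.3 CPM at E9.5 (log2 change -7.35 ± 0.47, adjusted p = 6.34e-06). Of 25 tested FGF genes 11 rose and 7 fell. Lmx1b, the dorsal limb factor, measured 26.8, 18.2 and 27.5 CPM at E11.5, against 4.68, 2.34 and 6.86 CPM at E9.5 (log2 change 2.39 ± 0.35, adjusted p = 0.00107).

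Retinoic acid is made in the trunk and cleared from the limb tip. Aldh1a2, the enzyme that makes it in trunk mesoderm, measured 48.4, 33.3 and 19.6 CPM at E11.5, against 276, 198 and 260 CPM at E9.5 (log2 change -2.86 ± 0.37, adjusted p = 0.00196). Cyp26b1, the enzyme that degrades it in the limb, measured 336, 258 and 324 CPM at E11.5, against 8.93, 4.98 and 14.7 CPM at E9.5 (log2 change 5.02 ± 0.39, adjusted p = 0.000244). Aldh1a2 and Cyp26b1 thus changed in opposite directions, and neither overlapped between the stages. The other synthetic enzymes Aldh1a1 (log2 change -4.33 ± 0.76, adjusted p = 0.000916) and Aldh1a3 (log2 change -3.57 ± 0.39, adjusted p = 5.53e-05) fell with Aldh1a2. The receptor gene Rarg rose (log2 change 1.61 ± 0.22, adjusted p = 0.00102). Of 16 tested genes of the pathway 4 rose and 7 fell.

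Wnt5a, the ligand of outgrowth, measured 385, 270 and 350 CPM at E11.5, against 69.9, 139 and 60.7 CPM at E9.5 (log2 change 1.89 ± 0.37, adjusted p = 0.00877), with replicate 2 the highest of E9.5. The secreted Wnt inhibitors Wif1, with 69.2, 40 and 42.5 CPM at E11.5, against 1.74, 1.14 and 1.25 CPM at E9.5 (log2 change 5.18 ± 0.30, adjusted p = 7.31e-06), and Dkk2, with 41.5, 31.4 and 29.5 CPM at E11.5, against 1.8, 4.86 and 3.88 CPM at E9.5 (log2 change 3.29 ± 0.32, adjusted p = 0.000119), rose without overlap, as did the ligand gene Wnt11 (log2 change 2.44 ± 0.30, adjusted p = 0.0004). Wnt1, a ligand of the dorsal neural tube, had no fragment in any E11.5 library, at least 464-fold lower against a floor of 3 fragments over the group. Of 52 tested Wnt genes 15 rose and 16 fell. In the BMP list 13 of 31 rose and 7 fell, with Bmp2 (log2 change 1.997 ± 0.47, adjusted p = 0.0138) and the inhibitor genes Chrdl1 (log2 change 2.53 ± 0.21, adjusted p = 2.41e-05) and Nbl1 (log2 change 3.25 ± 0.39, adjusted p = 0.00055) among the rises and the antagonist Nog among the falls (log2 change -1.55 ± 0.35, adjusted p = 0.0039). Of 19 Notch genes 4 rose (2 without replicate 1 of E9.5) and 11 fell. The falls included Dll1, Dll3 and Hes7, genes of the segmentation clock, and Hes5, a Notch target of neural progenitors (log2 change -8.34 ± 0.74, adjusted p = 0.00027). The Hes7 call was lost without any of the 3 E11.5 libraries (adjusted p from 0.0506 to 0.071, edgeR). Dll1 measured 3.43, 3.34 and 3.21 CPM at E11.5, against 49, 107 and 38.4 CPM at E9.5 (log2 change -4.29 ± 0.46, adjusted p = 0.0008), with replicate 2 of E9.5 above the other replicates.

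Cartilage genes rose in part. Of 38 chondrogenesis genes found, 30 passed the filter on low counts, and of these 12 rose, 6 fell and 12 did not pass, with a median log2 change of 0.31. Without replicate 1 of E11.5, 9 rose and 7 fell of 29, with a median of 0.01, and without replicate 2 of E9.5, 12 rose and 4 fell of 32, with a median of 0.29. Sox9, the main regulator of cartilage, measured 131, 95.6 and 117 CPM at E11.5, against 44.5, 15.9 and 47.4 CPM at E9.5 (log2 change 1.67 ± 0.43, adjusted p = 0.0222). The stages did not overlap, replicate 2 of E9.5 held the least, and the call was lost without replicate 1 or 3 of E11.5 (adjusted p = 0.0721 and 0.0594, edgeR). Col2a1, the main cartilage collagen, measured 329, 222 and 247 CPM at E11.5, against 181, 116 and 173 CPM at E9.5 (log2 change 0.76 ± 0.22, adjusted p = 0.0244) and lost its call without replicate 1 of E11.5 (log2 change 0.58, adjusted p = 0.0511, edgeR).

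The collagen IX genes rose too. Col9a2 measured 56.1, 20.8 and 27.4 CPM at E11.5, against 3.21, 2.16 and 2.56 CPM at E9.5 (log2 change 3.70 ± 0.47, adjusted p = 0.000956) and Col9a3 rose as well (log2 change 3.61 ± 0.41, adjusted p = 0.000274), and replicate 1 of E11.5 held the most of both. Runx2, a regulator of maturing cartilage and bone, measured 3.65, 7.81 and 5.42 CPM at E11.5, against 0.0545, 0.12 and 0.346 CPM at E9.5 (log2 change 5.07 ± 0.54, adjusted p = 4.45e-05). Papss2, which supplies sulfate for cartilage proteoglycans, rose too (log2 change 2.995 ± 0.57, adjusted p = 0.00261). The signal gene Ihh, which is made in gut as well as in cartilage, fell (log2 change -3.93 ± 0.72, adjusted p = 0.00117), as did Hapln1, a link protein gene, with 34.1, 45.1 and 41.8 CPM at E11.5, against 84.6, 119 and 113 CPM at E9.5 (log2 change -1.39 ± 0.15, adjusted p = 0.000115). Wwp2, a ubiquitin ligase gene known as a Sox9 target, overlapped between the stages with 93 to 120 CPM at E11.5, against 88.6 to 93.6 CPM at E9.5, and stayed above the threshold (log2 change 0.25 ± 0.10, adjusted p = 0.0526). Without replicate 2 of E11.5 it passed (log2 change 0.36, adjusted p = 0.00342, edgeR). In joints, Gdf5, a ligand of the joint interzone, measured 14.6, 7.12 and 6.36 CPM at E11.5, against 0.0545, 0.12 and 0.277 CPM at E9.5 (log2 change 5.997 ± 0.56, adjusted p = 3.3e-05). Osr2, a zinc finger gene of joints and connective tissue, measured 41.4, 33.3 and 36.9 CPM at E11.5, against 2.45, 2.16 and 3.12 CPM at E9.5 (log2 change 3.86 ± 0.17, adjusted p = 2.47e-07). Of 18 joint genes 9 rose and 2 fell.

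The same cartilage genes had a higher median change in the WT. Over the 30 genes tested in both genotypes the median log2 change was 0.31 in the KO and 1.99 in the WT, where 19 rose and 5 fell. The change was lower in the KO for 27 of the 30. Over all 15372 genes tested for the difference it was lower in the KO for 52.1%. An unadjusted p under 0.05 was reached by 12 of the 30 genes, against 15.2% of all genes, and none passed after adjustment over all genes, the lowest adjusted p being 0.102, although Wwp2 passed without WT replicate 3 of E11.5. Col2a1 averaged 266 ± 55.9 at E11.5 and 157 ± 35.5 at E9.5 CPM in the KO and 576 ± 91.2 at E11.5 and 138 ± 23.3 at E9.5 in the WT, and its change differed by -1.30 (adjusted p = 0.139, edgeR). Both changes of a gene and their difference come from separate fits, so that the difference can deviate slightly from the subtraction.

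**Figure D4:**
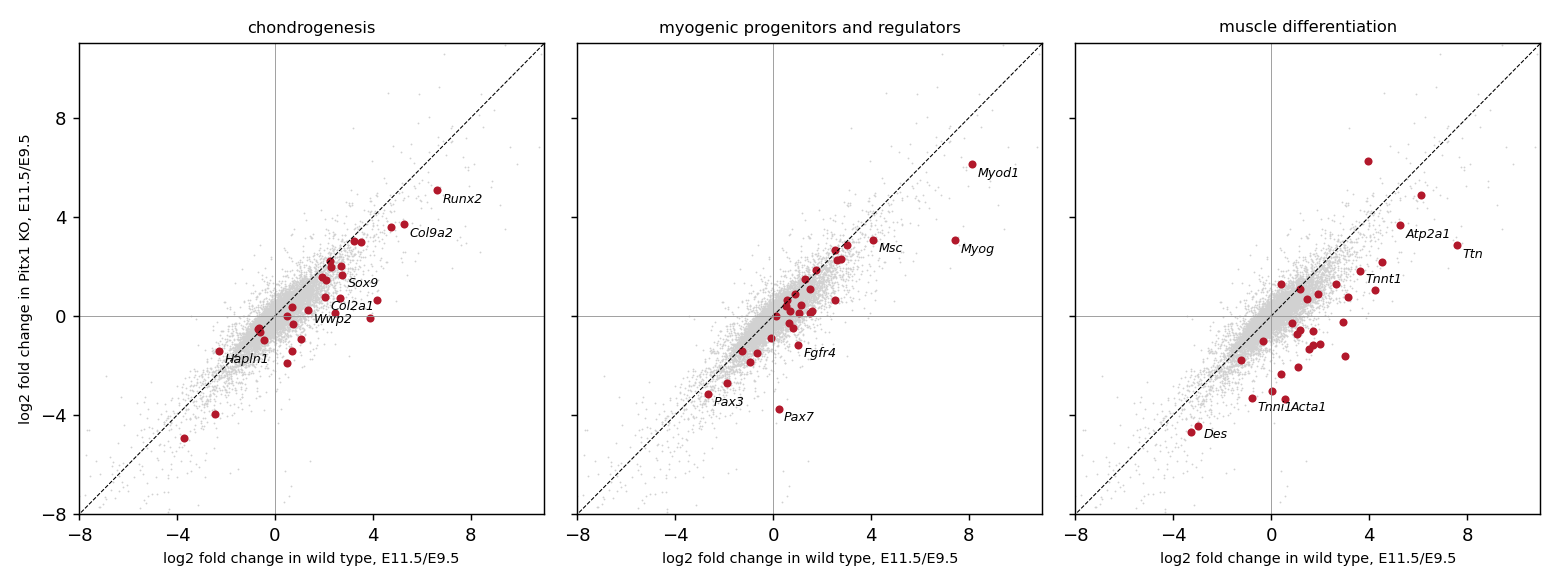
Log2 fold change, E11.5 over E9.5, in the KO (vertical) against that in the WT (horizontal) for genes of chondrogenesis, of myogenic progenitors and regulators, and of muscle differentiation, drawn over all tested genes in grey with a dashed line of equality and axes from -8 to 11. Most coloured points lie below the line: 27 of 30, 25 of 30 and 29 of 31 genes had the lower change in the KO.

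The lean was not limited to these lists, and other lists leaned the other way. The change was lower in the KO for 26 of 26 red blood cell genes, 11 of 12 pericyte and smooth muscle genes, 6 of 6 heart genes and 23 of 28 axon guidance genes. It was higher in the KO for 9 of 9 HoxB genes, 16 of 19 ridge genes, 25 of 26 mitosis genes and 28 of 31 DNA replication genes. Genes of a list vary together and are not independent. Summed red blood cell levels in the WT were 7032, 5083 and 12000 CPM at E11.5, against 12322, 10793 and 7007 at E9.5. WT replicate 3 was thus the highest at E11.5 and the lowest at E9.5, and its part in the result was not tested.

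Muscle genes were called in both directions, in shares not far from that of all genes. Of the tested regulators 66.7% were called and of the tested muscle differentiation genes 61.3%, against 55.6% of all tested genes. Of 30 tested genes of myogenic progenitors and regulators 13 rose and 7 fell, and without replicate 2 of E9.5 12 rose and 9 fell. Myod1, the master regulator of muscle fate, measured 9.55, 4.68 and 7.83 CPM at E11.5, against 0.163, 0 and 0.139 CPM at E9.5 (log2 change 6.13 ± 0.56, adjusted p = 2.07e-05), so that it was nearly absent from the field. Myog, the regulator of differentiation, measured 9.33, 4.63 and 3.77 CPM at E11.5, against 0.218, 0 and 2.01 CPM at E9.5, short of the threshold (log2 change 3.07 ± 1.07, adjusted p = 0.0548), although the stages did not overlap. Without replicate 3 of E9.5, the library with the most Myog of its stage, it passed (log2 change 5.66, adjusted p = 0.00129, edgeR). Myf5, an early regulator, overlapped between the stages with 3.48, 4.76 and 7.72 CPM at E11.5, against 6.86, 1.38 and 6.44 CPM at E9.5 (log2 change 0.11 ± 0.57, adjusted p = 0.883). Msc, which encodes musculin (log2 change 3.09 ± 0.31, adjusted p = 3.3e-05), and Lbx1, a homeobox gene of migrating precursors (log2 change 2.85 ± 0.51, adjusted p = 0.00107), rose.

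Pax3, which marks muscle precursors, somites and dorsal neural tube, measured 3.91, 7.23 and 9.04 CPM at E11.5, against 60.9, 54.9 and 58.8 CPM at E9.5 (log2 change -3.13 ± 0.29, adjusted p = 0.000162). Pax7, a related gene of the same tissues, measured 0.374, 0.201 and 0.0892 CPM at E11.5, against 4.25, 0.779 and 4.16 CPM at E9.5 (log2 change -3.74 ± 0.71, adjusted p = 0.00202); replicate 2 of E9.5 held less than its companions. The summed neural tube level moved with both genes, at 235, 219 and 239 CPM at E11.5, against 868, 536 and 910 CPM at E9.5, and its part in the result was not tested. Fgfr4, a receptor of muscle precursors, measured 3.92, 2.45 and 1.94 CPM at E11.5, against 7.02, 5.52 and 5.89 CPM at E9.5 (log2 change -1.15 ± 0.29, adjusted p = 0.00712) and fell in the KO, whereas it averaged 8.67 ± 2.34 CPM at E11.5 and 4.26 ± 0.841 CPM at E9.5 in the WT (SD, n = 3 each) and rose there (log2 change 1.03 ± 0.28, adjusted p = 0.011). The difference of -2.18 did not pass (adjusted p = 0.102, edgeR) except without KO replicate 1 of E11.5.

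Of 45 muscle differentiation genes found, 31 passed the filter, and 9 of these rose, 10 fell and 12 did not pass, with a median log2 change of -0.56 (0.35 without replicate 2 of E9.5, where 9 rose and 8 fell). Heart genes moved with the falls: 5 of 6 tested fell and none rose, with a summed level of 4.52, 2.87 and 3.82 CPM at E11.5, against 17.2, 39.6 and 23 CPM at E9.5, and their part in the result was not tested. Des, the intermediate filament of all muscle types, measured 1.9, 3.02 and 1.54 CPM at E11.5, against 46.6, 46.3 and 46.1 CPM at E9.5 (log2 change -4.42 ± 0.22, adjusted p = 1.36e-06). Tnni1, the slow troponin I gene, measured 0.781, 0.838 and 0.513 CPM at E11.5, against 6.15, 9.11 and 5.89 CPM at E9.5 (log2 change -3.30 ± 0.31, adjusted p = 2.31e-05). Both were lower in every E11.5 library. Among the rises were Atp2a1, the calcium pump of muscle, with 3.01, 1.66 and 2.39 CPM at E11.5, against 0.218, 0.12 and 0.208 CPM at E9.5 (log2 change 3.66 ± 0.46, adjusted p = 0.000129), and Ttn, the giant spring protein, with 2.82, 0.738 and 0.959 CPM at E11.5, against 0.163, 0.06 and 0.416 CPM at E9.5 (log2 change 2.85 ± 0.76, adjusted p = 0.0103). The Ttn call was lost without replicate 1 of E9.5 (adjusted p = 0.0522, edgeR). Chrna1, a subunit of the acetylcholine receptor, had 1 fragment in all E9.5 libraries together and 293 at E11.5, a ratio per total fragments of 88.3 (exact 95% interval 15.7 to 3500, covering counting error only). The smooth muscle genes Acta2 (log2 change -4.12 ± 0.61, adjusted p = 0.00309) and Tagln (log2 change -4.56 ± 0.50, adjusted p = 0.00102) also fell, with Acta2 at 9.51, 7.28 and 4.15 CPM at E11.5, against 67.1, 210 and 87.6 CPM at E9.5 and replicate 2 of E9.5 the highest.

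For the 31 muscle differentiation genes the median in the WT was 1.54 over the same genes, with 14 that rose and 2 that fell. The change was lower in the KO for 29 of 31. An unadjusted p under 0.05 for the difference was reached by 20 of them and none passed after adjustment (lowest adjusted p = 0.102), although Tnni1 passed without WT replicate 3 of E11.5 and Des without KO replicate 2 of E11.5. The summed level of the 45 genes was 108, 90.3 and 86.1 CPM in the KO libraries of E11.5, against 149, 210 and 164 in the KO libraries of E9.5. In the WT it was 322, 461 and 158 CPM at E11.5, against 176, 179 and 174 at E9.5, and the WT libraries of E11.5 thus differed among themselves by more than the KO libraries did. For myogenic regulators the medians over 30 shared genes were 0.30 in the KO and 1.05 in the WT, the change was lower in the KO for 25, and 12 reached an unadjusted p under 0.05.

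Connective tissue genes rose in most cases. Of 25 tested genes of tendon and muscle connective tissue 18 rose and 4 fell, or 2 without replicate 3 of E9.5 or replicate 2 of E11.5, with a median log2 change of 1.40. Scx, the tendon transcription factor, measured 29.7, 35.9 and 31.6 CPM at E11.5, against 1.52, 1.14 and 0.831 CPM at E9.5 (log2 change 4.77 ± 0.20, adjusted p = 2.14e-07). Col12a1, a collagen of tendon and fascia, measured 72.1, 60.9 and 56 CPM at E11.5, against 1.69, 2.52 and 2.42 CPM at E9.5 (log2 change 4.84 ± 0.17, adjusted p = 8.06e-08). Col1a2, a chain of collagen I, measured 1113.9, 802 and 920 CPM at E11.5, against 126, 119 and 150 CPM at E9.5 (log2 change 2.84 ± 0.14, adjusted p = 1.76e-06). None of these overlapped between stages. The proteoglycan genes Lum (log2 change 3.32 ± 0.39, adjusted p = 0.000755) and Kera rose, the second of them with no fragment in the E9.5 libraries and at least 121-fold higher at E11.5 against a floor of 3 fragments over the group, a call lost without replicate 2 of E9.5 (adjusted p = 0.0645, edgeR). Tcf21, a regulator of fibroblasts and visceral mesoderm, fell, with 0, 0.0671 and 0 CPM at E11.5, against 12.4, 10.4 and 10 CPM at E9.5 (log2 change -8.65 ± 0.56, adjusted p = 3.35e-06). Of 53 extracellular matrix genes 27 rose and 16 fell. Lox, which cross-links collagen, rose (log2 change 4.89 ± 0.41, adjusted p = 3.72e-05), and Lama1, a laminin of early basement membranes, fell (log2 change -2.39 ± 0.20, adjusted p = 8.07e-05). In the WT 18 of the connective tissue genes rose, with a median of 1.74.

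Genes of trunk tissues were mostly lower in the limb. Of 31 tested neural tube genes 25 fell and 2 rose, with a median log2 change of -7.06, or -5.96 with genes at 0 taken at their bound. Without replicate 2 of E9.5 the same numbers fell and rose of 32 tested. Of 36 such genes 12 had no fragment in any E11.5 library. Neurog2, a regulator of neuron formation, was among these, with 0, 0 and 0 CPM at E11.5, against 40.3, 7.61 and 38.2 CPM at E9.5, at least 1570-fold lower. Olig2, the factor of motor neuron progenitors, had 0, 0 and 0 CPM at E11.5, against 35.6, 8.69 and 32.4 CPM at E9.5, at least 1400-fold lower. Pax6, a factor of neural progenitors, measured 0.0651, 0.0335 and 0 CPM at E11.5, against 42.3, 21.6 and 42.5 CPM at E9.5 (log2 change -9.82 ± 0.51, adjusted p = 6.82e-06). In all 3 genes replicate 2 of E9.5 held the least of its stage. Zic2, which is made outside the neural tube as well, was among the members that rose (log2 change 0.70 ± 0.19, adjusted p = 0.0149), a call lost without replicate 1 or 3 of E9.5 (adjusted p = 0.0556 and 0.0562, edgeR). Dcx, a neuronal microtubule gene, rose against the list of neuron genes, in which 13 of 21 tested genes fell, with 52.5, 43.8 and 65 CPM at E11.5, against 1.14, 0.66 and 1.87 CPM at E9.5 (log2 change 5.48 ± 0.29, adjusted p = 4.36e-06).

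Somite genes fell in 17 of 23 cases and rose in 2, with a median of -3.79 (18 fell and 2 rose without replicate 2 of E9.5, median -2.66). Uncx, a gene of the posterior part of each somite, had 1 fragment at E11.5 and 1562 at E9.5, a ratio of 5180 (exact 95% interval 929 to 205000). The members that rose were Tbx18, with 142, 109 and 141 CPM at E11.5, against 15.5, 9.23 and 15.4 CPM at E9.5 (log2 change 3.28 ± 0.21, adjusted p = 2.12e-05), and Meox2, with 192, 134 and 140 CPM at E11.5, against 30.4, 9.17 and 33.7 CPM at E9.5 (log2 change 2.67 ± 0.50, adjusted p = 0.0074), both also known from limb mesenchyme. Of 17 tested tail bud genes 11 fell and 1 rose, and without replicate 2 of E9.5 12 fell and 3 rose. T, the brachyury gene of tail bud and notochord, measured 0.146, 0.402 and 0.424 CPM at E11.5, against 10.9, 34.4 and 9.07 CPM at E9.5 (log2 change -5.83 ± 0.76, adjusted p = 0.00119), and Cdx2, a caudal gene of gut and tail bud, measured 0, 0.0838 and 0.112 CPM at E11.5, against 17.6, 56.7 and 8.59 CPM at E9.5 (log2 change -8.76 ± 1.25, adjusted p = 0.00273). Replicate 2 was the highest of E9.5 for both. Gut genes fell in 19 of 21 tested cases with no rise (18 without replicate 2), among them Krt8, with 8.27, 13 and 8.68 CPM at E11.5, against 50.4, 145 and 49.6 CPM at E9.5 (log2 change -3.03 ± 0.55, adjusted p = 0.0066), and Foxa2, with 0, 0.0168 and 0.156 CPM at E11.5, against 8.93, 8.81 and 8.59 CPM at E9.5 (log2 change -7.37 ± 0.66, adjusted p = 3.6e-05). Of 18 kidney and intermediate mesoderm genes 11 fell and 4 rose, and Ret, a receptor of the nephric duct, measured 0.57, 0.637 and 0.379 CPM at E11.5, against 49.2, 53.6 and 41.3 CPM at E9.5 (log2 change -6.48 ± 0.19, adjusted p = 2.83e-08). Coelomic and visceral mesoderm genes fell in 14 of 17 cases and rose in 2, and notochord genes fell in 10 of 12 with no rise. Without replicate 2 the falls numbered 13 and 9. For all these lists a change within cells and the trunk tissue included in the E9.5 dissection cannot be told apart.

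Lin28a and other genes of the early embryo fell. Of 21 tested genes 11 fell and 4 rose. Lin28a, an RNA-binding protein that blocks maturation of the let-7 microRNAs, measured 2.21, 4.27 and 3.39 CPM at E11.5, against 323, 430 and 268 CPM at E9.5 (log2 change -6.70 ± 0.33, adjusted p = 3.08e-05). Its paralogue Lin28b measured 70.7, 82.7 and 90.7 CPM at E11.5, against 163, 165 and 193 CPM at E9.5 (log2 change -1.10 ± 0.11, adjusted p = 2.48e-05). Nr6a1, a nuclear receptor of early trunk development, measured 4.28, 4.54 and 4.11 CPM at E11.5, against 90.1, 96.4 and 74.5 CPM at E9.5 (log2 change -4.34 ± 0.12, adjusted p = 2.82e-08), and Prtg, a receptor of early mesoderm and neuroepithelium, 7.85, 11.2 and 15 CPM at E11.5, against 206, 200 and 194 CPM at E9.5 (log2 change -4.16 ± 0.23, adjusted p = 1.82e-05). All 4 fell with every E11.5 library below every E9.5 library. Myc fell too (log2 change -2.43 ± 0.12, adjusted p = 4.34e-07), as Dnmt3a, a DNA methyltransferase gene, rose (log2 change 1.08 ± 0.07, adjusted p = 1.72e-06). Hmga2, a chromatin protein gene and a known let-7 target, did not fall: it measured 1016.7, 1373.5 and 1249.4 CPM at E11.5, against 909, 949 and 994 CPM at E9.5 (log2 change 0.35 ± 0.11, adjusted p = 0.019), a rise that was lost without replicate 1 of E9.5 or replicate 2 or 3 of E11.5.

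The sequences of let-7 and of matches in these genes are shown because members with a match changed in different directions. The let-7 seed GAGGUAG is shared by 9 mature mouse microRNAs. let-7a is from RefSeq on GRCm38.p6, chr13:48538239-48538260 (-), with the seed in capitals, and each site is 22 bases of a 3′ UTR, read from the transcripts of a mouse annotation by gene symbol, with the 7-base match to the seed in capitals.
let-7a: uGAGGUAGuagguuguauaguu
Lin28a: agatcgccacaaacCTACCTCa
Lin28b: aatgatggcaccgaCTACCTCt
Nr6a1: gttgacaaagacaaCTACCTCa
Prtg: cgctcctgtttataCTACCTCc
Hmga2: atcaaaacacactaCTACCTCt
The match CTACCTC stood in the 3′ UTR of 12 of 17 genes of the list that were searched. It stands in 8.85% of 20964 mouse 3′ UTRs (1856). Among the 6079 of 1697 to 6337 bases, the length range of the 12, the share is 16.9% (1027). The list was put together in part from known let-7 targets. Nr6a1, with the fall of 4.34 in log2, holds 8 matches, Lin28b, with the fall of 1.10, holds 4, and Hmga2, with the rise, holds 4. Lin28a and Prtg, with falls of 6.70 and 4.16, hold 2 each. Among the other genes with a match, Trim71, Arid3b, Sall4 and Arid3a fell. Igf2bp1, Igf2bp2 and Igf2bp3, which hold a match too, were not called (log2 changes -0.17, -0.06 and 0.02). Of the searched genes with 0 matches, Myc, Mycn and Dnmt3b fell and Dnmt3a and Tet1 rose. let-7 itself was not measured, and a match is a description of the sequence.

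Red blood cell genes were mostly lower, with adult beta globins higher. Of 26 tested red blood cell genes 18 fell and 2 rose, and 11 fell without replicate 2 or 3 of E9.5 or replicate 3 of E11.5. The embryonic globins Hba-x and Hbb-bh1, made by the primitive red cells of the yolk sac, fell: Hba-x measured 626, 1436.8 and 772 CPM at E11.5, against 3014.9, 3849.5 and 3417.8 CPM at E9.5 (log2 change -1.87 ± 0.34, adjusted p = 0.00589) and Hbb-bh1 374, 1044.6 and 572 CPM at E11.5, against 2570.6, 4306.3 and 3201.9 CPM at E9.5 (log2 change -2.35 ± 0.45, adjusted p = 0.00824). Hbb-y, the third embryonic globin, measured 3179, 5997.2 and 3319.9 CPM at E11.5, against 4104.6, 5225.8 and 4806.2 CPM at E9.5 and overlapped (log2 change -0.18 ± 0.26, adjusted p = 0.579). Replicate 2 of E11.5 held the most of all 3, and without it Hbb-y fell (log2 change -0.54, adjusted p = 0.00382, edgeR). The adult beta globins rose within this falling list. Hbb-b1 measured 133, 192 and 107 CPM at E11.5, against 25.9, 58.5 and 34.6 CPM at E9.5 (log2 change 1.85 ± 0.39, adjusted p = 0.0111) and Hbb-bt 31.3, 32 and 19.9 CPM at E11.5, against 3.38, 7.97 and 3.39 CPM at E9.5 (log2 change 2.49 ± 0.38, adjusted p = 0.00146), with no overlap. Hba-a1 measured 363, 432 and 303 CPM at E11.5, against 455, 581 and 579 CPM at E9.5 and fell (log2 change -0.56 ± 0.14, adjusted p = 0.0108), but did not pass in the fits with 12 or 18 libraries (adjusted p = 0.155 and 0.204, edgeR). The near-identical Hba-a2 and Hbb-bs are listed at 0 in all 6 libraries, so that Hba-a1, Hbb-b1 and Hbb-bt are uncertain.

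The 130 bases before the start of 4 globin genes are shown because the genes lie in pairs in the same clusters and changed differently. They are from RefSeq on GRCm38.p6, written along the gene: Hba-x at chr11:32276470-32276599 (+), Hba-a1 at chr11:32283542-32283671 (+), Hbb-y at chr7:103853208-103853337 (-) and Hbb-bt at chr7:103813924-103814053 (-). Capitals mark, on either strand, the motif CACCC of erythroid promoters, the motif CCAAT, and ATAAA, which is part of many TATA boxes.
Hba-x: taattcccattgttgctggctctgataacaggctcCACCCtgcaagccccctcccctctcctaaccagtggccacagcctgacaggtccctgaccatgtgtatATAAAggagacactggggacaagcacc
Hba-a1: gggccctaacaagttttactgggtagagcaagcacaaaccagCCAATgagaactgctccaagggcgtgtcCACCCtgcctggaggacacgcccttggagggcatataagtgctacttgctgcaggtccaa
Hbb-y: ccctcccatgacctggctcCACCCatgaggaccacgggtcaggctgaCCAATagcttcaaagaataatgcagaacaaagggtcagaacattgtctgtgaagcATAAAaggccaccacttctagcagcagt
Hbb-bt: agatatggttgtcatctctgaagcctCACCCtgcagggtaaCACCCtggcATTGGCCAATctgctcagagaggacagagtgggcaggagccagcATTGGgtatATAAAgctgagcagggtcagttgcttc
The motif CACCC occurred in all 4 windows. CCAAT occurred in Hba-a1, Hbb-y and Hbb-bt, and the third motif in Hba-x, Hbb-y and Hbb-bt. In windows of the same length before 27025 genes the shares were 33.2%, 23.2% and 22.3%, and 1.27% held all 3, as those of Hbb-y and Hbb-bt do. In these 4 windows embryonic and adult genes did not separate by the exact strings searched. Other forms of the TATA box were not counted.

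Macrophage genes rose and none fell: 17 of 25 tested, with a median log2 change of 2.39 (18 of 26 without replicate 2 of E9.5). C1qc, a complement gene of tissue macrophages, measured 1.77, 2.41 and 2.12 CPM at E11.5, against 0.163, 0.12 and 0.208 CPM at E9.5 (log2 change 3.66 ± 0.43, adjusted p = 8.69e-05). Emr1, the F4/80 antigen, had 2 fragments over the E9.5 libraries and 250 at E11.5, a ratio of 37.7 (exact 95% interval 10.3 to 313). The summed level of the 28 found genes was 84.1, 95.5 and 77.2 CPM at E11.5, against 31.0, 28.4 and 31.9 at E9.5, with no overlap. Endothelial genes went the other way. Of 31 tested 24 fell and 1 rose, with a median of -1.0. Cldn5, a tight junction gene of vessels, measured 13.1, 14.9 and 14.9 CPM at E11.5, against 52.9, 59.9 and 59.9 CPM at E9.5 (log2 change -2.01 ± 0.10, adjusted p = 5.99e-07), and Flt4, the receptor of lymphatic growth, 11.9, 13.2 and 15.9 CPM at E11.5, against 43.7, 53.4 and 47.7 CPM at E9.5 (log2 change -1.83 ± 0.13, adjusted p = 4.76e-06). Robo4, a vessel guidance receptor, was the member that rose (log2 change 0.60 ± 0.16, adjusted p = 0.0106).

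In surface ectoderm 18 of 30 genes rose and 6 fell. Krt14, a keratin of stratified skin, measured 62.1, 43.1 and 51.4 CPM at E11.5, against 3.54, 3.6 and 3.88 CPM at E9.5 (log2 change 3.83 ± 0.16, adjusted p = 2.32e-07), and Krt17 rose with it (log2 change 3.80 ± 0.29, adjusted p = 6.77e-06). The simple epithelium keratins Krt8, Krt18 and Krt19, which are also gut genes, fell, by 3.03, 2.11 and 2.85 in log2. Gjb2, a gap junction gene, rose (log2 change 3.65 ± 0.44, adjusted p = 0.0011).

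Glycolysis genes were mostly lower. Of 27 glycolysis and hypoxia genes 18 fell and 3 rose. Slc2a1, the glucose transporter GLUT1, measured 104, 106 and 107 CPM at E11.5, against 599, 662 and 467 CPM at E9.5 (log2 change -2.46 ± 0.12, adjusted p = 9.92e-07), and Ldha, lactate dehydrogenase A, 462, 547 and 606 CPM at E11.5, against 1800.8, 2011 and 1483.1 CPM at E9.5 (log2 change -1.72 ± 0.13, adjusted p = 1.41e-05). Neither gene overlapped between stages. Hk1 (log2 change 0.44 ± 0.09, adjusted p = 0.00256) and Pfkm (log2 change 0.33 ± 0.07, adjusted p = 0.00329), enzymes of the upper pathway, rose. Igf1, a growth factor, measured 140, 170 and 190 CPM at E11.5, against 14.9, 14.5 and 28.1 CPM at E9.5 (log2 change 3.13 ± 0.29, adjusted p = 0.000341), and Irs1, which relays its signal, rose (log2 change 1.13 ± 0.11, adjusted p = 2.36e-05). Dlk1, an imprinted gene of growth, fell (log2 change -2.40 ± 0.21, adjusted p = 0.00015), and Cdkn1c, an imprinted inhibitor of the cell cycle, rose (log2 change 1.15 ± 0.08, adjusted p = 3.06e-06). Pmaip1, which encodes the death-promoting protein NOXA and responds to p53, measured 282, 315 and 318 CPM at E11.5, against 9.48, 23.4 and 5.75 CPM at E9.5 (log2 change 4.55 ± 0.51, adjusted p = 0.00118), among 8 rises and 8 falls in 19 genes of the p53 list.

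The largest rises of well expressed genes also took in Gja3, a gap junction gene, with 2 fragments in the E9.5 libraries and 3573 at E11.5, a ratio of 539 (exact 95% interval 149 to 4450). Others were Wfikkn2, an inhibitor of growth factors of the TGF-beta family, with 32.2, 14.4 and 22.8 CPM at E11.5, against 0.0545, 0.06 and 0.139 CPM at E9.5 (log2 change 8.10 ± 0.51, adjusted p = 7.23e-06), and Pcdh10, an adhesion gene, with 144, 90.8 and 124 CPM at E11.5, against 0.762, 0.72 and 1.32 CPM at E9.5 (log2 change 7.02 ± 0.27, adjusted p = 1.26e-06). Agtr2, the type 2 angiotensin receptor, measured 51.6, 52.7 and 54.4 CPM at E11.5, against 0.653, 0 and 1.52 CPM at E9.5 (log2 change 6.24 ± 0.55, adjusted p = 0.000249). The largest falls also included Foxb1 (log2 change -9.46 ± 0.21, adjusted p = 8.27e-09) and Sox3 (log2 change -8.92 ± 0.46, adjusted p = 5.4e-06), both of the neural tube, and Hes3, with no fragment at E11.5 and at least 800-fold lower.

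Cell division genes had higher changes in the KO than in the WT. Of 26 mitosis genes 13 rose and 4 fell in the KO, with a median log2 change of 0.10, against 4 that rose and 12 that fell in the WT, with a median of -0.24. The change was higher in the KO for 25 of the 26, and 20 had an unadjusted p under 0.05 for the difference, against 15.2% of all genes, with no call after adjustment over all genes. Their summed level was 7550, 7600 and 8000 CPM in KO libraries of E11.5, against 6370, 6591 and 6499 in KO libraries of E9.5. In the WT it was 6040, 5960 and 6307 CPM at E11.5, against 6580, 6309 and 6414 at E9.5. The KO stages were thus separated in the upward direction and the WT stages, narrowly, in the downward direction. Mki67, the proliferation antigen Ki-67, measured 888, 760 and 885 CPM at E11.5, against 465, 520 and 527 CPM at E9.5 (log2 change 0.74 ± 0.09, adjusted p = 8.27e-05), and Plk1, a mitotic kinase, 123, 129 and 162 CPM at E11.5, against 214, 219 and 188 CPM at E9.5 (log2 change -0.59 ± 0.11, adjusted p = 0.00161). Of 31 DNA replication genes 3 rose and 17 fell in the KO, or 10 fell without replicate 1 of E9.5, and the change was higher in the KO than in the WT for 28. Cdt1, which licenses replication origins, measured 77.6, 79.5 and 82 CPM at E11.5, against 167, 131 and 144 CPM at E9.5 (log2 change -0.89 ± 0.09, adjusted p = 3.63e-05).

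Neural crest genes fell in 10 of 19 cases and rose in 4, but only 5 or 6 fell without any library other than replicate 2 of E9.5, and 1 or 2 rose without replicate 1 or 2 of E9.5 or replicate 1 of E11.5. Sox10, the regulator of crest and glia, measured 1.82, 2.87 and 1.25 CPM at E11.5, against 22.8, 2.04 and 20.2 CPM at E9.5 (log2 change -2.92 ± 0.92, adjusted p = 0.043) and overlapped, with replicate 2 of E9.5 as low as the limb. Its call was lost without any of 5 of the 6 libraries (adjusted p from 0.0875 to 0.13, edgeR). Foxd3, an early crest gene, measured 0.488, 0.721 and 0.178 CPM at E11.5, against 13.2, 6.36 and 12.7 CPM at E9.5 (log2 change -4.50 ± 0.48, adjusted p = 0.000104). Among 28 axon guidance genes 18 rose and 7 fell. Epha4, a receptor that steers motor axons in the limb, measured 246, 244 and 262 CPM at E11.5, against 75.5, 73.3 and 85.6 CPM at E9.5 (log2 change 1.68 ± 0.08, adjusted p = 4.34e-07), and Ntn1, the floor plate attractant, 62.6, 64.9 and 47.4 CPM at E11.5, against 216, 204 and 190 CPM at E9.5 (log2 change -1.81 ± 0.12, adjusted p = 4.76e-06).

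Set beside the WT, the stage change was largely shared. In the WT 7456 of 14793 genes passed (50.4%), 3729 higher and 3727 lower (25.2% in each direction). Of 14329 genes tested in both genotypes 5808 were called in both, 5793 of them in the same direction and 15 in opposite directions. That is 72.8% of the KO calls and 79.4% of the WT calls. The correlation of the changes across genes, which are not independent replicates, was 0.896, with no libraries in common. Only 4 of 15372 genes (0.026%) were called for a difference in their change between genotypes. The change was higher in the KO for 2 (0.013%) and lower for 2 (0.013%). An unadjusted p under 0.05 was reached by 2344 (15.2%). With DESeq2 the number called was 379. A gene not called cannot be taken as alike in both genotypes, since 52% of 2-fold differences were recovered in simulated data.

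Sdc2, a heparan sulfate proteoglycan of the cell surface, measured 129, 111 and 116 CPM at E11.5, against 26.8, 30.7 and 29 CPM at E9.5 in the KO, against averages of 77 ± 5.91 CPM at E11.5 and 37.6 ± 2.84 CPM at E9.5 in the WT (SD, n = 3 each). The KO change was 2.03 ± 0.09 in log2 (SE) and the WT change 1.03 ± 0.11 in log2 (SE), and the difference was 1.005 (adjusted p = 0.0322, edgeR). Rprm, a p53-inducible arrest gene, measured 15.7, 12.7 and 12.1 CPM at E11.5, against 44.8, 49.2 and 40.2 CPM at E9.5 in the KO, against averages of 33.9 ± 6.58 CPM at E11.5 and 41.7 ± 4.49 CPM at E9.5 in the WT (SD, n = 3 each). It fell in the KO (log2 change -1.74 ± 0.13, adjusted p = 5.96e-06), with a difference of -1.43 (adjusted p = 0.0322, edgeR). For Sdc2 all KO libraries lay above all WT libraries at E11.5, and below them at E9.5, where the WT held 40.2, 38 and 34.5 CPM. The Rprm libraries of the KO lay below those of the WT at E11.5 and overlapped with them at E9.5. The remaining genes were Mir703, whose gene is very short, and Eno1, which has near-identical copies and no fragment in the KO at E11.5, and both are uncertain. Fgf10 had the larger change in the KO, 2.18 ± 0.19 in log2 (SE) against 1.02 ± 0.19 in log2 (SE) in the WT, and did not pass (difference 1.16, adjusted p = 0.139, edgeR).

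**Figure D5:**
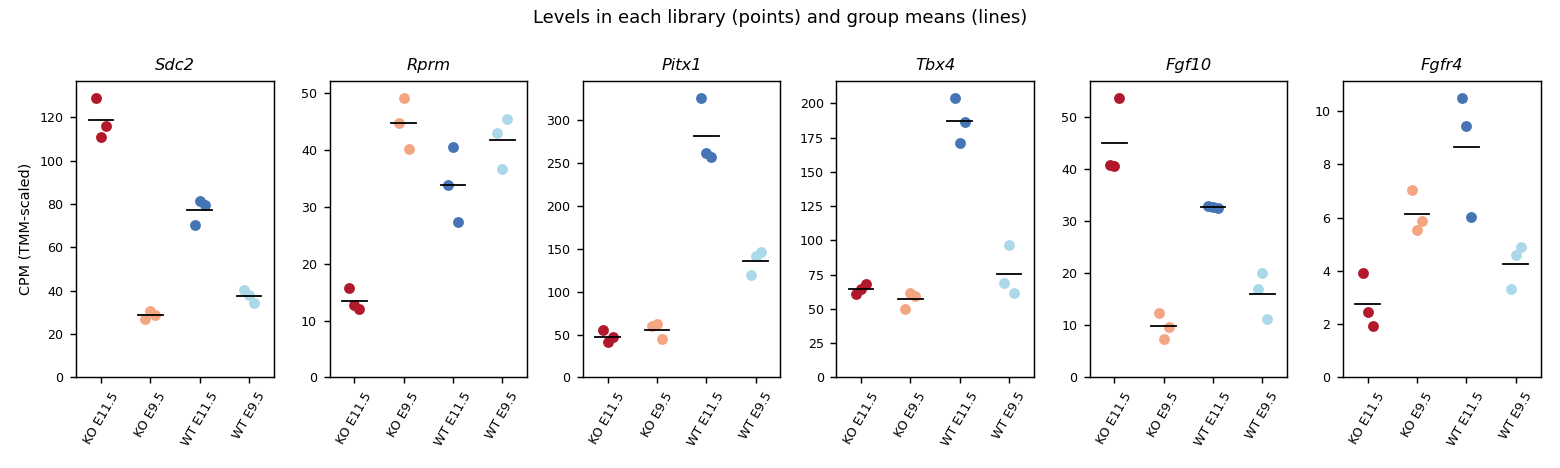
CPM of Sdc2, Rprm, Pitx1, Tbx4, Fgf10 and Fgfr4 in 12 libraries, ordered KO E11.5, KO E9.5, WT E11.5 and WT E9.5, on linear axes from 0. Sdc2 is highest and Rprm lowest in the 3 KO libraries of E11.5, and Pitx1 and Tbx4 are highest in the WT libraries of E11.5.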

How the data were processed

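Fragments per gene were summed by the authors' pipeline with Cuffdiff after alignment with TopHat2 to mm9 and quality control with FastQC, per the submitters' processing notes, which give no versions. Libraries were made with a stranded mRNA kit, per the labels' protocols; the sources used here give neither the annotation nor the strand setting of the counting. The deposited values are estimated counts, 1 table per stage, of which 1.79% were not whole, and they were rounded. Replicates 0 to 2 of the tables were taken as replicates 1 to 3 of the labels. Of 23929 genes listed, 25 names had been turned into dates, 2 of them standing for 2 genes and left out, and 6 genes that the tables mark as not estimated were left out.

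The KO stages were compared in the 6 KO libraries with edgeR 4.0.16 (R 4.3.3, limma 3.58.1; TMM scaling, filterByExpr, robust quasi-likelihood F test, Benjamini-Hochberg adjustment over all tested genes, threshold 0.05). The WT was fitted likewise, and the difference of the changes in 12 libraries. Printed CPM use the scaling of those 12. A floor is 3 fragments over a group, and intervals are exact at 95%, for counting error only. DESeq2 1.42.0, other filters, scalings, thinning to the shallowest library and leaving out each library were tried. On data simulated for the KO comparison (14274 genes) 52% of genes changed 1.5-fold, 78% of those changed 2-fold and 98% of those changed 4-fold were recovered. There 19 unchanged genes were called as well. For the KO to WT difference (15156 genes) the shares were 14% at 1.5-fold, 52% at 2-fold and 78% at 4-fold, with 11 unchanged genes called. The simulations changed 50 genes at each fold, a far smaller share than was called between the KO stages.

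Genes and lists were chosen with earlier results of these data known. Of 985 listed genes 983 were found. Named are a fixed panel, the 12 largest rises and falls with a mean of at least 10 CPM in a stage and no overlap, up to 4 members of a list per direction at 1 CPM or more with members that bear on what the list is for, and the genes with the strongest KO to WT difference. Sequences were matched by symbol. A few genes that enter the counts of their lists are not reported here by name.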

Additional observations from a re-analysis of the deposited data

Results flagged for a closer look

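In 4 genes the change of the KO over the stages differed from that of the WT by a test of the difference itself (edgeR interaction, adjusted p = 0.0322 for each). Sdc2 had a KO change above the WT change by 1.01 in log2, with all 3 KO libraries above every WT library at E11.5 and below every WT library at E9.5. Mir703 had a KO change above the WT change by 1.57, in a very short gene. Rprm had a difference of -1.43, with all 3 KO libraries of E11.5 below every WT library of that stage. Eno1 had a difference of -7.85, a fitted value that rests on the absence of fragments in the KO libraries of E11.5 and is no bound. All 4 calls were lost without replicate 1 of the KO at E9.5, replicate 3 of the KO at E11.5 or replicate 1 of the WT at E11.5, when 0 of the 4 passed. Rprm was also lost without replicate 1 or 2 of the WT at E9.5 or replicate 2 of the KO at E9.5 or E11.5, Sdc2 without replicate 1 of the WT at E9.5, and Eno1 without replicate 2 of the KO at E11.5. Mir703 was lost without any of 9 of the 12 libraries.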

How the results depend on the processing

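In the KO 8040 genes passed, and 6649 to 8340 did so under the alternatives other than a test against a 1.5-fold change, where 1260 rose and 1390 fell. Leaving out a KO library gave 3378 to 3929 rises and 3390 to 3870 falls, with 1076 to 1346 and 1306 to 1427 of at least 2-fold. With a mean of at least 5 CPM required, 679 rose and 709 fell at least 2-fold, since fewer genes were tested. The KO to WT difference was sensitive: against 2 genes in each direction, the number with the higher and the lower change in the KO was 201 and 178 with DESeq2, 5 and 10 with 18 libraries in 1 fit, 1 and 1 after thinning, 1 and 0 with a mean of at least 5 CPM, and 0 and 0 without the robust step or against a 1.5-fold change. With library totals only, 1 had the higher change. Leaving out a library gave 0 to 3 and 0 to 7. The cause was not tested. Replicate numbers did not pair the samples (correlations of deviations -0.0823, -0.0232 and -0.0452). With the replicate block 7433 KO genes passed and the difference was called for 0 and 0. Of 335 tested named genes 284 stayed called or uncalled in every alternative that tested them, the test against a 1.5-fold change left out. With a mean of at least 5 CPM only 254 of them were tested. Among genes called in the main fit or in the alternative 0 changed sign. Depth limits the genes with few fragments at E9.5.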
